A study of Mus musculus with 77 samples.

Results

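The comparison described here is that of dopamine depletion against mock lesion in direct pathway spiny projection neurons (dSPN) of the mouse striatum, across all genes measured. Its arrays were taken by their labels, namely those of the Drd1 line that followed either surgery and then chronic saline, and numbered 21 of the 77 in the series. All mice were male Drd1::EGFP-L10a BAC transgenics (TRAP line CP73, C57BL/6J) of 9 to 14 weeks, so both groups carried the tag. In the lesioned group (11 arrays) 1 µl of 6-hydroxydopamine (6-OHDA, 3.2 µg/µl), a toxin taken up by dopamine neurons, had been injected into the right medial forebrain bundle. In the mock group (10 arrays) the vehicle alone, saline with 0.02% ascorbate, had been injected there. Behaviour at 2 weeks was used to select successful lesions, saline injections began at 3 weeks, and the dorsal striatum of the operated side of a single animal was used for each array. Translating ribosome affinity purification (TRAP) pulls down messenger RNA on ribosomes that carry a green-fluorescent L10a protein, which was expressed under Drd1 control. The same surgery in the Drd2 line, which tags indirect pathway neurons (iSPN), gave 7 lesioned and 10 mock arrays for comparison.

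Dopamine from the midbrain excites dSPN through the D1 receptor. This receptor couples to Golf and adenylyl cyclase, raises cAMP and protein kinase A activity, and feeds into the ERK kinase cascade and the transcription of activity-regulated genes. The products of some of these genes, among them the dual-specificity phosphatases, Sprouty and Spred proteins, act back on ERK signalling as inhibitors. iSPN carry the D2 receptor instead, which lowers cAMP, so dopamine acts on the pathways in opposite senses.

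All values are log2 expression by the RMA method, and a change is the difference of log2 means, lesion minus mock, with its standard error (SE). One lesioned array stood apart from its group. Each array was placed between the groups over the genes that passed the test when that array was left out, with 0% at the mean of its own group and 100% at the mean of the other group. Lesioned array 17 lay 74.6% of the way to the mock arrays over 409 genes, whereas the other 10 lesioned arrays lay between -3.3% and 14.0%. The mock arrays lay between -15.3% and 35.6%, with arrays 4 and 29 nearest to the lesioned group. By correlation with the rest of its group over all genes array 17 did not stand apart (0.985, against a range of 0.984 to 0.989). It was kept, and results are also given without it. Since it was singled out for lying towards the mock arrays, more or larger changes without it are no separate support.

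**Figure D1:**
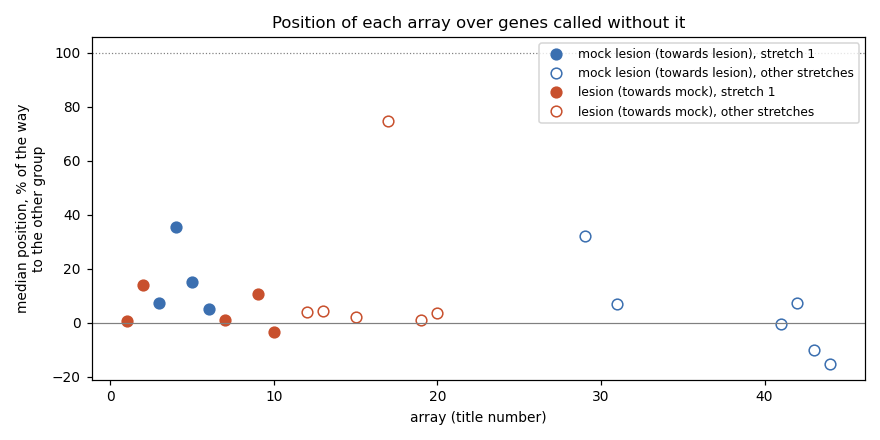
Position of each dSPN array (x axis, title number) between the groups, as the median percent of the way from its own group's mean to that of the other group (y axis), over the genes called when that array was left out. Filled points are arrays of title stretch 1. Lesioned array 17 sits at 74.6%, and the other lesioned arrays sit between -3.3% and 14.0%.

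The group is partly tied to the numbering of the arrays. Title numbers run in stretches within which the animal number rises, and the labels do not say what a stretch stands for. Lesioned arrays came from stretches 1 (5 arrays) and 2 (6 arrays), and mock arrays from stretches 1 (4), 3 (2) and 4 (4). Only stretch 1 held both groups, so values with the stretch as a block and within stretch 1 (5 against 4 arrays) stand beside the pooled ones.

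The identity of the sample was checked on marker genes. Drd1 itself was high in both groups, with 11.64, 11.79 and 11.93 (lowest, median, highest) in mock and 11.49, 11.78 and 11.93 in lesioned arrays, a difference of -0.03 (SE 0.13, adjusted p = 0.968). The striatal genes shared by both neuron types had a mean level of 11.13 in the median mock array and 11.05 in the median lesioned array. Markers of other cells were examined as lists. Of 14 astrocyte markers 12 had a positive difference (median 0.21) and 1 was called, and their mean level was 6.55 to 7.28 in mock and 6.97 to 7.50 in lesioned arrays. Of 15 oligodendrocyte markers 13 had a positive difference (median 0.17), none was called by limma and 2 had an unadjusted p under 0.05, with mean levels of 6.37 to 7.28 and 6.62 to 7.83. None of 11 microglia, 9 GABA interneuron, 7 dopaminergic terminal, 6 endothelial and mural, 4 cholinergic and 4 cortical markers was called by limma, and 1, 2, 2, 0, 0 and 0 of them, in that order, had an unadjusted p under 0.05. Over all genes tested 1692 of 13271 had such a p. The part of other cells in the changes below was not tested beyond fits with a marker mean as a covariate, and in such purified RNA fewer cells of a type and less RNA per cell cannot be told apart.

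Across 13271 genes tested, 329 (2.48%) differed at an adjusted p under 0.05 by limma with Benjamini-Hochberg adjustment, referred to as called. Of these 244 (1.84%) fell and 85 (0.640%) rose, and 54 changed over 2-fold, 38 down and 16 up. The median difference over all genes tested was -0.0022, with quartiles of -0.13 and 0.11. Among called genes the size of the difference ran from 0.12 to 2.17 for falls and from 0.14 to 2.35 for rises. Without array 17 the fit called 409 genes (3.08%), 110 up and 299 down, and 319 of the 329 were among them. With the stretch as a block 88 genes (0.663%) were called, 24 up and 64 down, all of them among the 329. Within stretch 1 alone 7 were called, and Vgf, Ifi27l2a, Ankrd13a, Sox11 and 6820408C15Rik were called in all 3 fits. All 329 called genes kept their sign in the block fit and in stretch 1, but both use arrays that also entered the pooled fit. In the 6 lesioned and 6 mock arrays outside stretch 1, 34 genes were called, and 33 of these had the same sign in the separate arrays of stretch 1, at a median size of 0.95 outside and 0.90 inside.

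The leading fall was that of Vgf, which encodes a secreted peptide precursor induced by neurotrophins and by neuronal activity. Vgf measured 8.45, 9.15 and 9.67 (lowest, median, highest) in mock arrays and 6.42, 6.77 and 8.69 in lesioned arrays. The overlap came from array 17 alone, since the next lesioned array reached 7.72. Vgf fell by 2.14 (SE 0.17, adjusted p = 3.74e-15), which is 4.40-fold, and by 2.30 without array 17. It fell by 1.92 with the block (adjusted p = 4.26e-08) and by 2.14 within stretch 1 (adjusted p = 0.0469).

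Of 35 genes on a list made up mainly of activity-induced transcription factors 5 fell, none rose, and 30 did not pass. The median difference was -0.15, and 10 of the 35 had a positive one. Egr2, a zinc finger factor, ran at 6.40, 7.88 and 8.64 in mock and 4.40, 6.22 and 7.93 in lesioned arrays. In 6 of 11 lesioned arrays the level lay below every mock array, and Egr2 fell by 1.74 (SE 0.30, adjusted p = 6.39e-05). The orphan nuclear receptor Nr4a3 ran at 6.29, 7.55 and 8.67 against 4.88, 5.57 and 7.40, with overlapping ranges, and fell by 1.61 (SE 0.26, adjusted p = 1.29e-05). Egr1, another zinc finger factor, fell from 11.93, 12.16 and 12.35 to 11.34, 11.70 and 12.13 (-0.49, SE 0.09, adjusted p = 6.17e-05). These 3 kept their call with the block (adjusted p = 0.00655, 0.00242 and 0.00262). Crem (-0.82), a cAMP-responsive modulator, and Tiparp (-0.80), which encodes an ADP-ribosyltransferase, did not (adjusted p = 0.167 and 0.458). Tiparp also lost its call when any of 8 arrays was left out (-0.78 to -0.72, adjusted p up to 0.0934). The immediate early genes Fos, Fosb, Junb and Nr4a1 did not pass: the differences were -0.63 for Fos (SE 0.39, adjusted p = 0.554), 0.13 for Fosb, -0.21 for Junb and -0.52 for Nr4a1 (SE 0.26, adjusted p = 0.374). Fos and Nr4a1 spread widely in mock arrays, over 3.74 to 6.60 and 6.46 to 8.38. Without array 17 the list had 6 falls and no rise.

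Another list of activity-regulated genes gave 5 falls and 1 rise among 23 tested, with a median of -0.24. Beside Vgf they included Scg2, which encodes secretogranin II of dense-core vesicles, at 8.95, 9.81 and 10.00 in mock and 8.33, 8.86 and 9.70 in lesioned arrays. Array 17 was again the highest lesioned one, the next being 9.13, and Scg2 fell by 0.75 (SE 0.13, adjusted p = 3.39e-05, block adjusted p = 0.0210). Rgs2, a regulator of G protein signalling, fell by 0.39 (adjusted p = 0.000664, block adjusted p = 0.0407). The postsynaptic gene Arc had 6.72, 7.15 and 8.07 in mock and 6.04, 6.42 and 7.00 in lesioned arrays, with 3 lesioned arrays above the lowest mock array, and fell by 0.76 (SE 0.19, adjusted p = 0.0102), a call lost with the block (-0.56, adjusted p = 0.454). Nptx1, a neuronal pentraxin of excitatory synapses, went the other way and rose by 0.73 (SE 0.18, adjusted p = 0.00889, block adjusted p = 0.0779). Homer1, a postsynaptic scaffold, fell by 0.33 (adjusted p = 0.0384), a call that was lost when any of 11 arrays was left out (-0.34 to -0.31, adjusted p between 0.0527 and 0.0959) and with the block (adjusted p = 0.189). Its 6 probe sets gave -0.90 to -0.21, and only the one of highest mean was tested here.

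**Figure D2:**
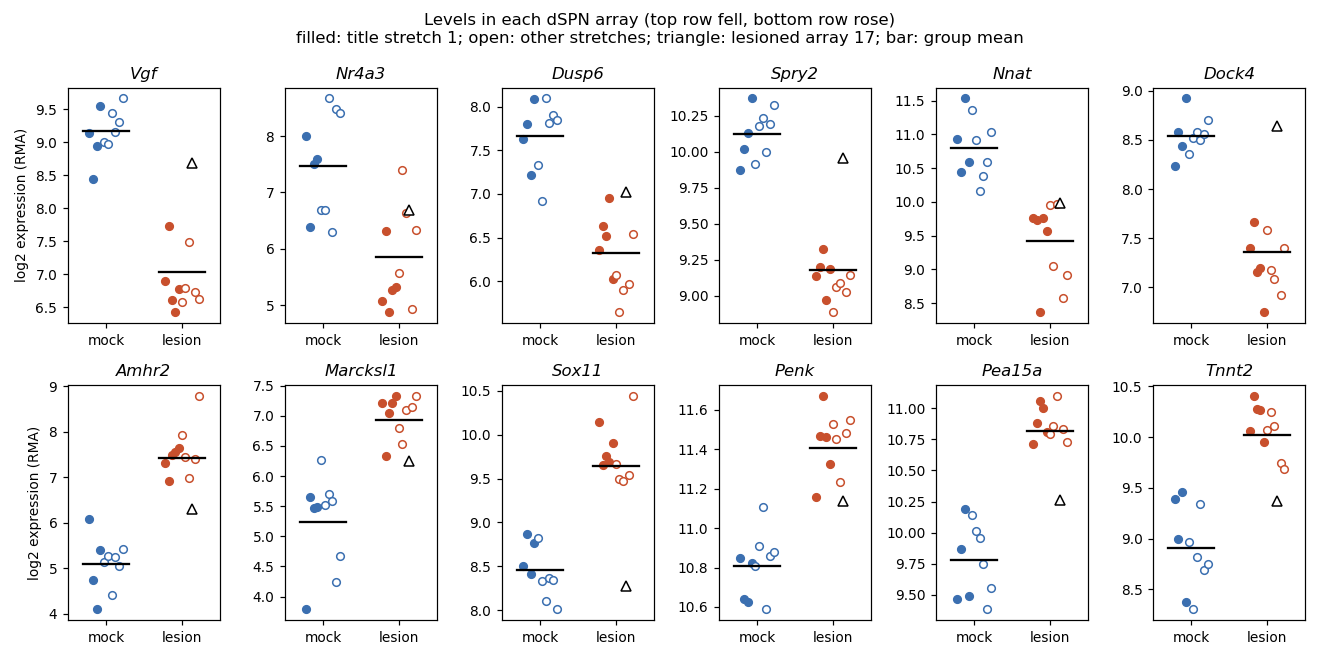
Log2 expression (y axes) of 12 genes in each of the 10 mock and 11 lesioned dSPN arrays. The top row shows genes that fell, the bottom row genes that rose, bars are group means, filled points are stretch 1, and the triangle is lesioned array 17, which lies towards the mock arrays in most panels, as for Spry2 (9.95, against 9.33 or less in the other lesioned arrays).

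Inhibitors of the ERK pathway formed the list with the largest share of falls among those described. Of 22 MAP kinase phosphatases and Ras inhibitors 8 fell, none rose, and 14 did not pass, with a median of -0.35, and with the block 5 fell. Dusp6, a phosphatase that acts on ERK, ran at 6.92, 7.80 and 8.09 in mock and 5.65, 6.36 and 7.03 in lesioned arrays. Only 2 lesioned arrays, one of them array 17, lay above the lowest mock array, and Dusp6 fell by 1.33 (SE 0.21, adjusted p = 1.17e-05, block adjusted p = 0.0124). Spry2, a Sprouty inhibitor of receptor tyrosine kinase signalling, stood at 9.87, 10.16 and 10.37 against 8.89, 9.13 and 9.95. All 10 lesioned arrays other than array 17 lay at 9.33 or less, below every mock array, and Spry2 fell by 0.94 (SE 0.11, adjusted p = 5.71e-09, block adjusted p = 4.42e-05).

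Dusp3, which dephosphorylates ERK and JNK, fell from 10.78, 10.95 and 11.20 to 10.12, 10.33 and 10.73 (-0.65, SE 0.07, adjusted p = 5.76e-10), and its groups did not overlap. Spred2, a Spred-family inhibitor of Ras to Raf signalling, fell by 0.69 (adjusted p = 3.73e-05) from 10.15, 10.54 and 10.76 to 9.47, 9.62 and 10.75, where the highest value is again that of array 17 and the next 10.28. Spred3 fell by 1.23 (adjusted p = 0.00330), Dusp14 by 0.81 (adjusted p = 0.00624), Dusp1 by 0.63 (adjusted p = 0.00204) and Ptpn5, the striatum-enriched tyrosine phosphatase STEP, by 0.31 (adjusted p = 0.00259). Spred3 lay near the floor, with means of 4.28 in mock and 3.06 in lesioned arrays. The mean over all arrays needed for testing was 3.55. With the block Spred2 (adjusted p = 0.00941), Spred3 (0.0374) and Dusp3 (1.99e-05) were still called, and Dusp14 (0.167), Dusp1 (0.109) and Ptpn5 (0.128) were not. Of 22 Ras and ERK cascade genes 1 was called, the ERK target Elk1 (0.38, SE 0.10, adjusted p = 0.0200), which lost its call without mock array 43 (0.35, adjusted p = 0.0538) and with the block (adjusted p = 0.164), and the median was -0.0078. Without array 17 the list of inhibitors had 9 falls and no rise, at a median of -0.41.

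Many genes of these lists are known targets of the cAMP response element binding protein, so RefSeq promoter windows (GRCm38.p6, 250 bases before to 50 after the start) were searched on both strands for its full element, TGACGTCA. It was found in 9 of 195 windows of genes that fell (4.62%), in 4 of 67 of genes that rose (5.97%) and in 371 of 10672 of genes tested (3.48%). For the short element TGACG, which the full one contains, the shares were 34.36%, 31.34% and 34.66%, and for the AP-1 site TGANTCA 7.69%, 5.97% and 6.09%. The EGR site GCGTGGGCG was in 1.03%, 0.00% and 1.41%, the NGFI-B element AAAGGTCA in 0.00%, 2.99% and 1.14%, and the CArG box in 2.05%, 0.00% and 1.63%. No share is a test, and a match is only a run of letters. Promoters were to be printed for genes with the largest differences or smallest adjusted p. The rule asked for the full element, the EGR site or the CArG box before the most upstream start. No such gene met it, and not every gene had a window. The upstream windows of 2 other genes that fell, chosen after their values were seen, show the full element in capitals within 128 bases, read 5′ to 3′ on the gene's strand. In Scg2 (chr1:79440027-79440154, minus strand) it begins 68 bases before the start, and in Dusp1 (chr17:26508548-26508675, minus strand) 143 bases before it.
Scg2: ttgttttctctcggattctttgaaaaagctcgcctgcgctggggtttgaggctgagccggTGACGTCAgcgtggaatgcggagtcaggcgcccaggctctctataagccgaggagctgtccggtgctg
Dusp1: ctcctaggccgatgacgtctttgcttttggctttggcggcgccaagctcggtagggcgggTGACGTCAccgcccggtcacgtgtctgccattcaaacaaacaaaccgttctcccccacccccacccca

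Several large falls lay outside the activity lists. The long noncoding RNA Mir670hg, host transcript of a microRNA, dropped from 6.22, 6.61 and 7.24 to 2.94, 4.55 and 6.34, by 2.17 (SE 0.33, adjusted p = 5.63e-06). Its single value inside the mock range was array 17, with the next lesioned array at 5.26, and the call was kept with the block (adjusted p = 0.00631). Ifi27l2a, an interferon-inducible gene, had no overlap at 4.95, 5.60 and 6.35 against 3.01, 3.66 and 4.62, and fell by 1.87 (SE 0.19, adjusted p = 5.35e-11), also within stretch 1 (-1.84, adjusted p = 0.0298). It was the only one of 25 interferon and MHC class I genes called, and the list's median was 0.03.

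Nnat encodes neuronatin, a small membrane protein of the endoplasmic reticulum. It is on the dSPN marker list, although its mock mean was higher in iSPN (11.25) than in dSPN (10.80). It measured 10.16, 10.76 and 11.53 in mock and 8.36, 9.73 and 9.98 in lesioned arrays, without overlap, and fell by 1.38 (SE 0.16, adjusted p = 1.74e-09, block adjusted p = 5.35e-06). Dock4, an activator of the small GTPase Rac, ran at 8.23, 8.54 and 8.92 against 6.75, 7.20 and 8.64. All lesioned arrays but array 17 were at 7.66 or less, and Dock4 fell by 1.18 (SE 0.16, adjusted p = 1.36e-07, block adjusted p = 1.99e-05). Ankrd13a, a ubiquitin-binding endocytic protein, fell by 0.83 (SE 0.10, adjusted p = 7.34e-09) and was called within stretch 1 too (-0.99, adjusted p = 0.0298). Per2, a core repressor of the circadian clock, fell by 1.02 (SE 0.16, adjusted p = 8.94e-06, block adjusted p = 0.00784) and was the only one of 22 clock genes called. Its 3 probe sets gave -1.02, -0.37 and 0.11, the last one at a mean of 3.63.

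Among the remaining large falls with the call kept in the block fit were Ptges3l (-1.95, adjusted p = 3.95e-06), the sodium-proton exchanger Slc9a5 (-1.47, adjusted p = 6.52e-05), the endopeptidase Phex (-1.33, adjusted p = 0.0135), Midn (-1.28, adjusted p = 3.63e-09), whose product midnolin targets nuclear proteins for degradation, and the formin Fmnl1 (-1.19, adjusted p = 1.99e-08). The call was lost with the block for Wnt8b (-1.70, block adjusted p = 0.517), C030013G03Rik (-1.68, 0.138), the transporter Abcc12 (-1.41, 0.0746), the stress gene Gadd45a (-1.40, 0.0732) and the actin-binding Tagln (-1.36, 0.265). Cdh4, or R-cadherin, an adhesion molecule, fell by 0.93 (SE 0.19, adjusted p = 0.00103, block adjusted p = 0.00625), the only call among 20 cadherins and protocadherins.

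The leading rise was that of Amhr2, which encodes the type II receptor of anti-Müllerian hormone in the TGF-beta family. It stood at 4.10, 5.20 and 6.09 in mock and 6.31, 7.46 and 8.79 in lesioned arrays, without overlap. The rise was 2.35 (SE 0.30, adjusted p = 5.28e-08, block adjusted p = 8.93e-05), and its 3 probe sets gave 0.60, 2.35 and 3.65, so the direction was shared but the size was not. Follistatin (Fst), a secreted antagonist of activin, rose by 1.25 (SE 0.25, adjusted p = 0.000602), from 3.84, 4.70 and 5.98 to 5.05, 6.09 and 7.40, with overlapping groups and the call lost with the block (1.11, adjusted p = 0.115). These were the only calls among 38 activin, BMP and TGF-beta genes, whose median was 0.04.

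Genes of the cytoskeleton and of neuronal growth included 3 rises and no fall among 46, with a median of 0.04. Marcksl1, an actin-regulating substrate of protein kinase C, rose from 3.79, 5.50 and 6.27 to 6.25, 7.10 and 7.33, by 1.69 (SE 0.28, adjusted p = 2.82e-05), and all 4 of its probe sets rose, by 0.95 to 1.69. Only array 17 lay below the highest mock array. Sox11, a transcription factor of neuronal growth and development, rose from 8.01, 8.39 and 8.86 to 8.27, 9.67 and 10.45, by 1.19 (SE 0.19, adjusted p = 8.94e-06) and within stretch 1 by 1.19 (adjusted p = 0.0298). Only array 17 lay in the mock range, the next lesioned array being at 9.48, and all 6 probe sets rose, by 0.74 to 1.19. Stmn1, the microtubule regulator stathmin, rose by 0.45 (SE 0.09, adjusted p = 0.000434, block adjusted p = 0.0872). Without array 17 the list had 3 rises and 1 fall.

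Pea15a, a phosphoprotein that binds ERK and holds it in the cytoplasm, rose from 9.38, 9.81 and 10.19 to 10.27, 10.83 and 11.10 without overlap (1.04, SE 0.12, adjusted p = 3.37e-09, block adjusted p = 2.01e-05). Tnnt2, or troponin T, rose from 8.30, 8.89 and 9.46 to 9.37, 10.07 and 10.41 (1.11, SE 0.19, adjusted p = 6.52e-05), with array 17 the lowest lesioned one and the next at 9.68. Fam126a, which encodes the hyccin subunit of a lipid kinase complex, rose by 1.13 (SE 0.21, adjusted p = 0.000214) without overlap. The liver-type phosphofructokinase Pfkl rose by 0.70 (SE 0.09, adjusted p = 1.77e-07) and the chromatin remodeller Chd3 by 0.67 (SE 0.11, adjusted p = 3.44e-05), both kept with the block (adjusted p = 1.34e-05 and 0.00172). Of the other large rises Trp53i11 (1.22), Pafah1b3 (1.07) and 6820408C15Rik (1.29) kept their call with the block (adjusted p = 0.0466, 0.0301 and 0.0208). Morc4 (1.18), Lgals8 (1.10), Epb41l4b (1.08) and Gpr161 (1.10) lost it (adjusted p = 0.406, 0.196, 0.0728 and 0.134), and Gpr161 also without mock array 3 or 6 (0.96 to 0.98, adjusted p up to 0.0689). Mcm6 (1.49) and Dleu7 (1.22) passed narrowly, and lost their call when any of 20 and 14 arrays, respectively, was left out (adjusted p up to 0.117 and 0.106). The other probe set of Mcm6 did not share the rise, at -0.07 with a mean of 3.98.

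Peptide and receptor genes listed as markers of the neuron types moved in mixed directions. Penk, the enkephalin precursor that marks iSPN, rose from 10.59, 10.84 and 11.11 to 11.14, 11.46 and 11.67 without overlap (0.60, SE 0.06, adjusted p = 5.35e-11). It rose by 0.68 both with the block (adjusted p = 4.26e-08) and within stretch 1 (adjusted p = 0.113). It was the only call among 9 iSPN markers, whose median was 0.13, and Drd2 itself stood at -0.23 (SE 0.17, adjusted p = 0.644). Of the dSPN peptides, Tac1, the substance P precursor, had a difference of -0.30 (SE 0.10, adjusted p = 0.0732), which passed without array 17 (-0.33, adjusted p = 0.0442). The dynorphin precursor Pdyn had -0.39 (SE 0.23, adjusted p = 0.497). Of 14 dSPN markers 2 rose and 1 fell: the orphan receptor Gpr149 (0.92, SE 0.23, adjusted p = 0.00876) and Tpbg (0.38) rose, and Nnat fell. The median over these markers was -0.08.

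Among 23 neuropeptide and prohormone genes 3 rose and 2 fell. The granin Scg3 rose by 0.80 (SE 0.16, adjusted p = 0.000669) without overlap, but was not called with the block (adjusted p = 0.0774). Trh rose by 0.84 (adjusted p = 0.0417), a call lost when any of 11 arrays was left out (adjusted p up to 0.141). The corticotropin-releasing hormone gene Crh had the largest difference of the list, 1.75, but its SE was 0.64 (adjusted p = 0.151). Of 34 other G protein-coupled receptors 2 rose and 1 fell. The histamine H3 receptor Hrh3 rose from 6.79, 7.13 and 7.56 to 7.11, 8.05 and 8.73, by 0.84 (SE 0.15, adjusted p = 6.52e-05, block adjusted p = 0.00631), with array 17 the lowest lesioned one. The mu opioid receptor Oprm1 fell by 1.05 (adjusted p = 0.0279), a call lost with the block (adjusted p = 0.278) and without lesioned array 1 (-0.97, adjusted p = 0.0613), lesioned array 17 (-0.92, 0.0615) or mock array 43 (-0.93, 0.0843).

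Of 44 genes of dopamine and cAMP signalling 1 rose and 1 fell, with a median of -0.03. By unadjusted p under 0.05 there were 13 of 44, against 1692 of 13271 genes tested. Ppp1r2, an inhibitor of protein phosphatase 1, rose by 0.25 (SE 0.04, adjusted p = 6.52e-05, block adjusted p = 0.0252) from 12.52, 12.61 and 12.70 to 12.67, 12.85 and 12.98. The phosphodiesterase Pde1b fell by 0.19 (adjusted p = 0.0341), a call lost when any of 8 arrays was left out (adjusted p up to 0.0708). Adcy5 (0.01), Gnal (0.11), Ppp1r1b (0.03), which encodes DARPP-32, and Pde10a (-0.02) were not called.

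**Figure D3:**
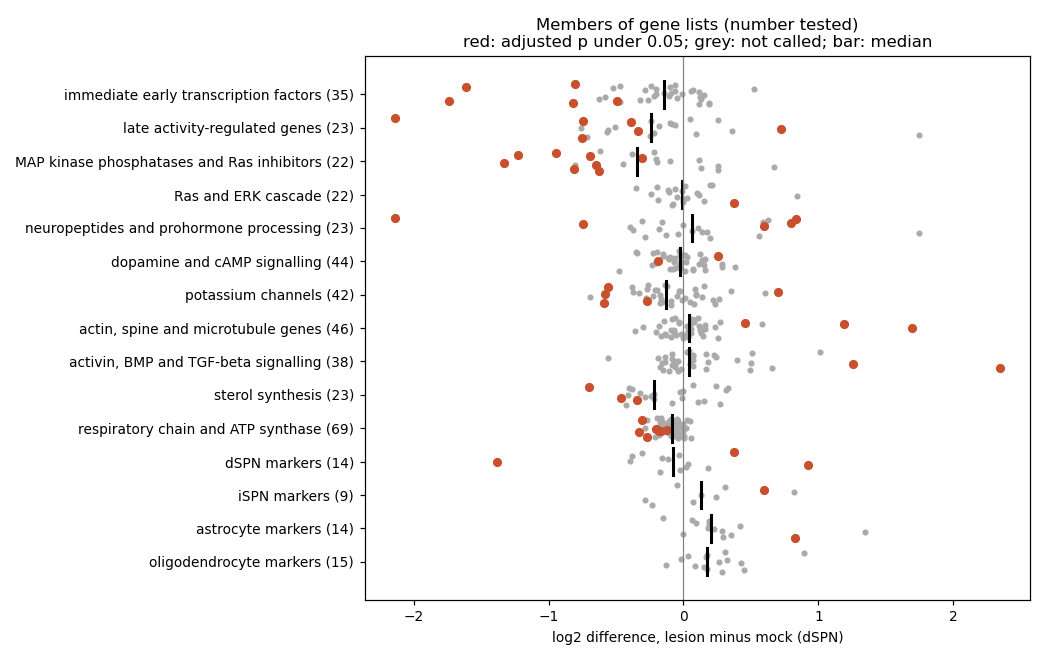
Difference, lesion minus mock, in dSPN (x axis, log2) of each tested member of 15 lists (rows, with the number tested). Red points are called, grey points are not, and bars are medians, which run from -0.35 for MAP kinase phosphatases and Ras inhibitors to 0.21 for astrocyte markers.

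Channel, receptor, lipid and energy genes were examined by list. Of 42 potassium channel genes 4 fell and 1 rose, with a median of -0.13. Kcnq3, a subunit of the M channel, fell by 0.56 (SE 0.11, adjusted p = 0.000545, block adjusted p = 0.0137) and Kcnab1, a beta subunit of Kv1 channels, by 0.27 (adjusted p = 0.000553, block adjusted p = 0.0210). Kcna2 (-0.59) and Kcnip3 (-0.58) fell in the pooled fit and not with the block (adjusted p = 0.0705 and 0.112). Of 41 glutamate receptor genes 3 fell and 1 rose, and none was called with the block. The rise, of the NMDA receptor subunit Grin2c (0.92, adjusted p = 0.0432), was lost when any of 16 arrays was left out (adjusted p up to 0.115). Their falls were those of the AMPA receptor partner Cacng3 (-0.52), the kainate receptor partner Neto2 (-0.51) and Cacng4 (-0.42), the last one with its call lost when any of 12 arrays was left out (adjusted p up to 0.106). Of 21 sodium and calcium channels and 15 GABA receptor genes none was called by limma, and 5 and 2 had an unadjusted p under 0.05. The share over all genes tested was 1692 of 13271.

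Sterol synthesis genes gave 3 falls and no rise among 23, with a median of -0.22. Hmgcs1, an early enzyme of the pathway, fell by 0.35 (SE 0.08, adjusted p = 0.00457, block adjusted p = 0.0186). Srebf2 (-0.70), its transcriptional regulator, and the isomerase Idi1 (-0.46) each lost their call when any of 8 arrays was left out (adjusted p up to 0.110 and 0.0885). Of 69 respiratory chain genes 63 had a negative difference, and the median was -0.09, against -0.0022 over all genes tested. An unadjusted p under 0.05 by limma was found for 25 of the 69, against 1692 of 13271 genes tested. In this list 7 fell, none rose, and none was called with the block. Cycs, or cytochrome c, fell by 0.18 (SE 0.05, adjusted p = 0.0155) and Atp5e, a subunit of the ATP synthase, by 0.27 (adjusted p = 0.0103). No member was called among 33 proteasome, 39 chaperone, 31 lysosome, 44 histone and chromatin enzyme, 28 lineage transcription factor, 37 axon guidance and 30 vesicle release genes by limma, and 4, 4, 8, 5, 4, 6 and 6 of them, in that order, had an unadjusted p under 0.05. Beside these counts, 1692 of all 13271 genes tested had such a p. Of the 33 proteasome genes 27 had a negative difference, with a median of -0.05.

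In 24 genes (0.181% of those tested) the lesioned and mock arrays did not overlap, 14 of them lower and 10 higher after lesion, and all were called. Those not yet named, chosen after their values were seen, included Bcl2, an inhibitor of apoptosis, which fell by 0.71 (SE 0.13, adjusted p = 0.000131, block adjusted p = 0.0186). Its lowest mock array was at 10.96 and its highest lesioned array at 10.87. Ppp1ca, a catalytic subunit of protein phosphatase 1, fell by a small 0.18 (SE 0.04, adjusted p = 0.000865, block adjusted p = 0.156). Thra, a thyroid hormone receptor, rose by 0.26 (SE 0.06, adjusted p = 0.00281), with -0.16, 0.01 and 0.26 in its 3 probe sets. Without array 17 the number of genes with no overlap was 75 (0.565%), 50 lower and 25 higher. Leaving out any array can only keep or raise this number, so its direction was fixed in advance.

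The same surgery in iSPN served to ask which changes differed between the pathways. The lines share no array, and in iSPN alone 823 genes (6.20%) were called, 424 up and 399 down. A test of the difference between the lesion effects, dSPN minus iSPN, called 645 genes (4.86%), 219 with the higher effect in dSPN and 426 with the lower one. With the block 148 were called, and 9 of 10 iSPN mock arrays stood in stretch 5 with 1 lesioned array. Of the 329 genes called in dSPN 170 were called in this test, 122 that fell and 48 that rose in dSPN, and 157 of the 170 had the opposite sign in iSPN. Being called in both tests itself favours an opposite sign. The 157 also include small iSPN differences that were not called, such as that of Egr1 (0.07, adjusted p = 0.765). Of the 244 that fell in dSPN, 40 rose and 13 fell in iSPN at an adjusted p under 0.05, and their median iSPN difference was 0.04. Of the 85 that rose, 18 fell and 8 rose there, with a median of -0.05.

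Vgf fell by 2.14 in dSPN and rose by 1.65 (SE 0.20, adjusted p = 2.38e-09) in iSPN, a difference between effects of -3.79 (SE 0.26, adjusted p = 8.83e-19, block adjusted p = 2.26e-09). Scg2 stood at -0.75 and 1.90, a difference of -2.65 (SE 0.19, adjusted p = 2.33e-18), and Nnat at -1.38 and 0.90, a difference of -2.28 (SE 0.24, adjusted p = 2.70e-11). These secretory and membrane genes thus moved in opposite directions in the 2 lines, each past the test. Nr4a1 and Fos, which were not called in dSPN, rose in iSPN by 2.83 and 2.43, and the effects differed (adjusted p = 7.12e-10 and 0.000216, or 1.88e-05 and 0.0515 with the block).

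Of the genes that rose in dSPN, Tnnt2 stood at 1.11 against -1.58 in iSPN (difference 2.69, SE 0.29, adjusted p = 8.03e-11), Pea15a at 1.04 against -0.70 (1.74, SE 0.18, adjusted p = 3.28e-11) and Hrh3 at 0.84 against -0.90 (1.74, SE 0.22, adjusted p = 1.51e-08). All 3 differences were also called with the block (adjusted p = 0.000453, 0.000436 and 0.00141). Of the named genes with the lowest and highest differences between effects, some had the larger change in iSPN. The calcium-binding Anxa3 had 0.53 in dSPN and 4.24 in iSPN, and the peptide gene Cartpt 0.20 and 3.89, whereas the transcript C030013G03Rik had -1.68 and 3.27. At the other end Gpx6, a glutathione peroxidase, had -0.06 and -2.60, Sulf1 0.58 and -2.22, S100a10 0.71 and -1.93, and Rapgef3 0.84 and -1.79. With the block the difference between lines was not called for Gpx6 (adjusted p = 0.252) and Rapgef3 (adjusted p = 0.614), and Rapgef3 was not called in iSPN itself (adjusted p = 0.0643). Mir670hg, in contrast, had the larger change in dSPN, at -2.17 against 1.27 (difference -3.44, SE 0.50, adjusted p = 7.79e-07, block adjusted p = 0.0161). Some genes had like differences in both lines. Abcc12 stood at -1.41 in each (difference 0.01, SE 0.42, adjusted p = 0.997), and Wnt8b at -1.70 and -2.11 (0.41, SE 0.62, adjusted p = 0.809), and these errors leave room for unequal effects. Penk rose in both lines, by 0.60 and 0.23, and by more in dSPN on the log2 scale (0.37, SE 0.09, adjusted p = 0.00724). This difference was not called with the block (adjusted p = 0.120). Its mock and lesioned means were 10.81 and 11.41 in dSPN, against 12.91 and 13.14 in iSPN. Whether the higher level in iSPN limited the rise measured there was not tested. Whether RNA from iSPN contributed to Penk in the dSPN arrays was not tested either.

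**Figure D4:**
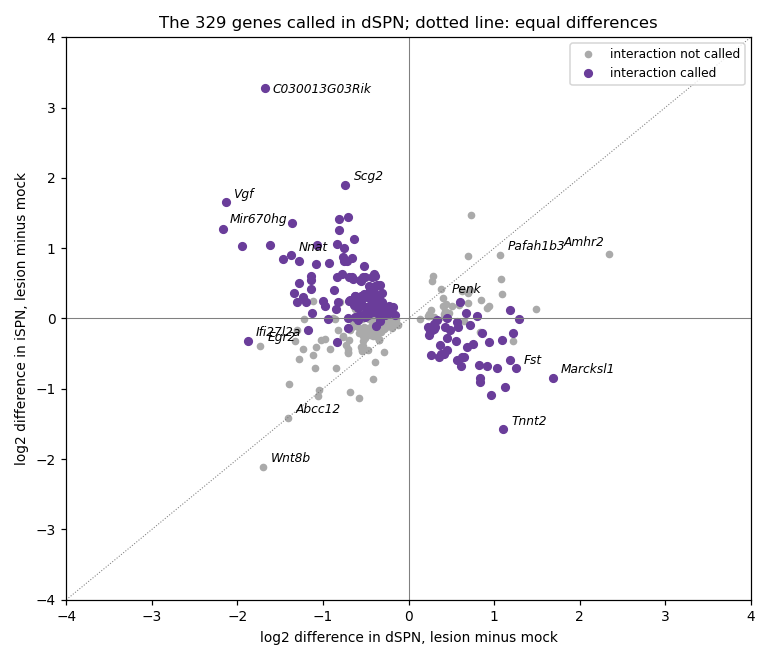
Lesion minus mock in dSPN (x axis) against the same in iSPN (y axis), both log2, for the 329 genes called in dSPN. Purple points differ between the lines at an adjusted p under 0.05 (170 genes), and 157 of them lie in the quadrants of opposite sign, such as Vgf at -2.14 and 1.65. Being called in both tests itself favours an opposite sign, and iSPN differences that were not called are counted.

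The lesioned saline arrays were also the reference of the levodopa groups of the series, so levels in those groups are given side by side as a description, and no difference from mock was tested. Low-dose mice had received levodopa at 1 and later 2 mg/kg, high-dose mice at 3 and later 6 mg/kg, both with 12 mg/kg benserazide, an inhibitor of its breakdown outside the brain. Mean Vgf was 9.17 ± 0.35 (SD, n = 10) in mock and 7.03 ± 0.68 (n = 11) in lesioned arrays, 9.52 ± 0.28 (n = 12) with low-dose levodopa and 10.18 ± 0.31 (n = 11) with high-dose levodopa. In the same order Nnat was at 10.80 ± 0.44, 9.42 ± 0.59, 11.46 ± 0.35 and 12.00 ± 0.06, and Spry2 at 10.12 ± 0.17, 9.18 ± 0.28, 10.24 ± 0.20 and 10.57 ± 0.17. The means of these genes in both levodopa groups were above the mock mean. Dock4 was at 8.54 ± 0.19, 7.36 ± 0.50, 6.94 ± 0.43 and 6.82 ± 0.22, and Ifi27l2a at 5.59 ± 0.52, 3.71 ± 0.44, 3.87 ± 0.45 and 3.60 ± 0.41. Mir670hg was at 6.68 ± 0.36, 4.52 ± 0.87, 4.24 ± 0.80 and 4.01 ± 0.78, and the means of these 3 with either dose were below the mock mean. Among rises, Amhr2 (5.09 ± 0.56, 7.44 ± 0.63, 7.57 ± 0.72 and 7.88 ± 0.49) and Sox11 (8.45 ± 0.29, 9.64 ± 0.54, 9.53 ± 0.31 and 9.43 ± 0.24) had means above the mock mean. Pea15a lay between, at 9.78 ± 0.29, 10.82 ± 0.22, 10.20 ± 0.18 and 9.98 ± 0.13.

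**Figure D5:**
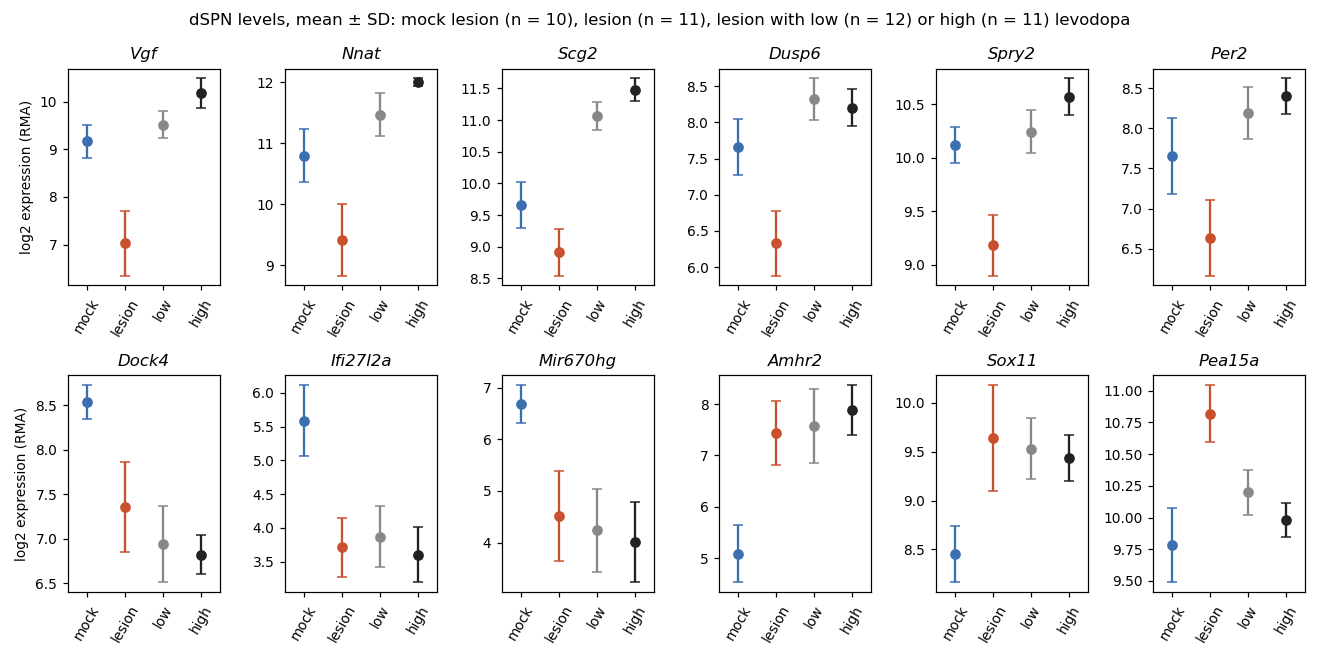
Mean log2 expression ± SD (y axes) of 12 genes in dSPN arrays after mock lesion (n = 10), lesion with saline (n = 11) and lesion with low (n = 12) or high (n = 11) levodopa. Vgf, at 7.03 after lesion, lies at 9.52 and 10.18 with levodopa, while Dock4 (7.36, 6.94 and 6.82) has means below its mock mean of 8.54.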

How the data were processed

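Each sample was 1 Affymetrix mouse whole-genome array of TRAP-purified RNA from 1 animal. The authors deposited log2 values for each probe set, made with RMA and the affy package per the submitters' processing notes, with no version stated. RMA draws all arrays to nearly one distribution, so a shift shared by most genes would not be seen. Array medians ran from 4.31 to 4.42. Detection calls were not used here, and precision is limited by the number of arrays (median SE 0.15).

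Of 45101 probe sets 34958 had a single gene symbol, 932 had several and 9211 had none, and the last 2 kinds were left out. Of the single-symbol ones, 34754 had an Entrez identifier in the RefSeq gene table (GRCm38.p6). Of several probe sets for a gene the one of highest mean was used, and 13271 of 18194 genes were tested, those whose mean exceeded 3.55, which is percentile 40 over probe sets.

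The fit used limma 3.58.1 in R 4.3.3 (lmFit and eBayes) with the 8 groups of the 77 arrays as terms (69 residual degrees of freedom) and tests on both sides. Each array is labelled as a single animal, and p-values measure the spread between animals. The fit was tested on simulated data. The members, gene lists and tests were chosen with earlier results of these data known. Named genes were the 15 highest and 15 lowest called differences, a panel of 12 genes, up to 6 called members of each list, the 10 smallest adjusted p in each direction, the 5 highest and 5 lowest interactions, and up to 10 genes called in every fit. Genes named beyond this rule (such as Crh, Bcl2, Ppp1ca and the uncalled cAMP genes) were chosen after their values were seen. Promoters came from the RefSeq table for 10672 of the genes tested. Alternatives changed the title stretch (fixed block, random block, stretch 1 alone), the arrays fitted, array weights, the spread estimate, the filter, the probe set rule, the scaling and marker covariates, and left out each array in turn. The arrays outside stretch 1, and list counts with the block and without lesioned array 17, were added after the data were seen.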

Additional observations from a re-analysis of the deposited data

Results flagged for a closer look

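Among the named genes the lesion effect differed between dSPN and iSPN in 61, by the limma test of the difference itself (adjusted p under 0.05). With the title stretch as a block 41 of the 61 were still called and 20 were not (block adjusted p from 0.0515 to 0.784), namely Fos, Tagln, Fst, Srebf2, Ifi27l2a, Penk, Gpr149, Scg3, Kcnq3, 6820408C15Rik, Stmn1, Lgals8, Gpx6, Sox11, Atp5e, Ankrd13a, Trp53i11, 6330403K07Rik, Rapgef3 and Morc4. In 49 of the 61 the effects had opposite signs in the lines, whether or not each effect was itself called. The effect, dSPN minus iSPN on the log2 scale, was lower in dSPN for C030013G03Rik (-4.95), Vgf (-3.79), Mir670hg (-3.44), Nr4a1 (-3.35), Fos (-3.05), Ptges3l (-2.98), Tagln (-2.72), Nr4a3 (-2.65), Scg2 (-2.65), Slc9a5 (-2.32), Nnat (-2.28), Crem (-2.23), Rbp4 (-2.15), Dusp14 (-2.07) and Midn (-1.79). The same held for Igfbp6 (-1.76), Cdh4 (-1.72), Dusp6 (-1.69), Dhrs3 (-1.65), Arc (-1.58), Fmnl1 (-1.42), Srebf2 (-1.29), Dusp3 (-1.21), Pdcd6 (-1.10), Rgs2 (-0.99), Kcnq3 (-0.88), Egr1 (-0.56), Ptpn5 (-0.53), Cycs (-0.35) and Atp5e (-0.35). It was higher in dSPN for Sulf1 (2.79), Tnnt2 (2.69), S100a10 (2.64), Rapgef3 (2.63), Marcksl1 (2.54), Fam126a (2.10), Fst (1.96), Morc4 (1.77), Hrh3 (1.74), Pea15a (1.74), Gpr149 (1.59), Aldh1l1 (1.49), Trp53i11 (1.44), Lgals8 (1.40), 6820408C15Rik (1.30), Elk1 (0.88), Thra (0.77), Ppp1r2 (0.44) and 6330403K07Rik (0.35).

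In 12 genes the estimates had the same sign in both lines. These were Anxa3 (-3.71), Cartpt (-3.69), Ifi27l2a (-1.56), Dock4 (-1.02), Spry2 (-0.93), Ankrd13a (-0.49), Penk (0.37), Stmn1 (0.45), Chd3 (0.59), Scg3 (0.77), Sox11 (1.06) and Gpx6 (2.54). In some of them an estimate was small and not called, so that its sign is uncertain. Such were Spry2 (-0.01) and Stmn1 (0.0025) in iSPN and Gpx6 (-0.06) in dSPN. Anxa3, Cartpt, Nr4a1, Fos, Gpx6, Rapgef3, S100a10 and Sulf1 were not called in dSPN itself.

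A single mock array lay far from the other 9 in 7 of 117 checks, and chance alone flags about 1 in 20 groups. It was array 29 for 6820408C15Rik (6.81, the rest 4.69 to 5.68), array 43 for Arc (8.07, the rest 6.72 to 7.41) and for Oprm1 (7.55, the rest 5.89 to 6.74), array 31 for Fmnl1 (8.64, the rest 9.16 to 9.66), array 3 for Gpr149 (3.81, the rest 4.50 to 5.09) and array 6 for Kcna2 (8.73, the rest 8.97 to 9.18). The mean of the endothelial and mural markers was 5.30 in array 31 and 4.24 to 4.64 in the rest.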

How the results depend on the processing

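The 329 calls (85 up, 244 down) changed in number by over 1.5 times under 5 settings. With the stretch as a block 88 were called (24 up, 64 down), and 148 for the difference between lines, within stretch 1 alone 7 (2 and 5), and outside it, a choice made after seeing the data, 34 (10 and 24). With dSPN arrays alone 554 were called (155 and 399), with the 21 saline arrays alone 451 (138 and 313), and with array weights 776 (234 and 542). A random block gave 390, a trended and robust spread 358, no filter 310, a stricter one 338, the mean of probe sets 392, centred arrays 386 and quantile normalization 306. The random block used a correlation within stretches of -0.0211, so it took out no stretch effect and is not a second check beside the fixed block. An astrocyte marker mean as a covariate gave 249 (221 of the 329), and an oligodendrocyte one 271 (254). Leaving out 1 array gave 250 (without mock array 44) to 409 (without lesioned array 17), with 66 to 110 up, 184 to 299 down and 571 to 670 between lines. Of 91 named called genes 45 kept the call with the block. Signs turned only for uncalled values, namely Cartpt (-0.0968 with the block), Gpx6 (0.0741 in stretch 1, 0.0519 with the astrocyte covariate, -0.163 to 0.0215 leaving out an array) and Drd1 (-0.0459 to 0.0002). The causes were not tested. Only the 9 arrays of stretch 1 compare both groups within a stretch. The block fit also links stretches through the levodopa groups, which stood in stretches 2 and 3 (high dose) and 3 and 4 (low dose). Signal over background was not used.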

Other observations

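Of the called genes with several probe sets, 103 of 118 that fell and 39 of 46 that rose had one sign in all of them. Over all called genes array 17 had a mean of 8.95 for those that fell, between 8.46 to 8.63 in the other lesioned and 9.04 to 9.31 in the mock arrays, and of 8.32 for those that rose, between 8.67 to 8.85 and 7.91 to 8.13. Among sizable differences that did not pass were those of Tgfbr1 (1.01, adjusted p = 0.0937), Oprd1 (0.82, adjusted p = 0.215), Dusp4 (-0.81, adjusted p = 0.0944), Slc18a2 (-0.79, adjusted p = 0.286) and Nptx2 (-0.76, adjusted p = 0.0587), by limma with Benjamini-Hochberg adjustment.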
